A study of Mus musculus with 54 samples.

Results

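The genes described here are 8 markers of the mesothelium, the sheet of flat cells that covers the heart as the outer layer of the epicardium and also covers the liver: Msln, Muc16, Upk3b, Upk1b, Lrrn4, Gpm6a, Krt19 and Wt1. They were chosen by name, and selected on their low levels in Mrps12ha/ha hearts in these same data, with no numeric threshold, from the 54356 genes of each table. The heart contrasts of Mrps12ha/ha therefore describe the choice and carry no test for these 8 genes. RNA-seq was done on whole hearts and livers of C57BL/6 mice aged 20 weeks, all kept on a high-fat diet with 42% of energy from fat, 35% from carbohydrate and 23% from protein. The mice were male. Mrps12 encodes a protein at the decoding site of the small mitochondrial ribosomal subunit. The groups were wild-type Mrps12+/+ mice, homozygous Mrps12ep/ep mice with an error-prone mitochondrial ribosome and homozygous Mrps12ha/ha mice with a hyper-accurate one, and each group had 3 mice per tissue. The mutations are in every cell of the animal, wild-type and mutant mice were matched for age and litter, and no mice on another diet were analysed here. In the hearts Mrps12 itself was between 1028 and 1397 normalized counts in all 3 genotypes, which does not check the labels because both alleles are substitutions that a gene count does not show.

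Mesothelial cells form a lubricated surface and carry both epithelial and mesenchymal features. The epicardium arises from a cluster of progenitor cells near the venous pole of the heart, spreads over the myocardium, and in the embryo gives rise to fibroblasts and vascular mural cells. In the adult it is a thin, mostly quiescent layer that covers the atria as well as the ventricles. Mesothelin (Msln) is a surface glycoprotein anchored by a lipid and binds the large membrane mucin Muc16, the antigen known as CA125. Upk3b and Upk1b are uroplakins, membrane proteins of the bladder lining that are also made by mesothelium. Lrrn4 is a membrane protein with leucine-rich repeats, Gpm6a a membrane glycoprotein of neurons and epithelia, Krt19 an intermediate filament keratin shared with bile ducts, and Wt1 a zinc-finger transcription factor of the epicardium and of kidney podocytes.

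RefSeq promoter windows on GRCm38.p6 were at hand for 4 of the 8 genes (Upk3b, Lrrn4, Muc16 and Gpm6a). Those of Upk3b and Lrrn4 are printed because these genes had the largest heart differences among the 8 genes. Each line gives the 250 bases before the RefSeq start, read 5′ to 3′ in the direction of the gene. Capitals mark GGAATG or its reverse complement CATTCC, the core of the sites bound by TEAD factors.
Upk3b, chr5:136038246-136038495, plus strand: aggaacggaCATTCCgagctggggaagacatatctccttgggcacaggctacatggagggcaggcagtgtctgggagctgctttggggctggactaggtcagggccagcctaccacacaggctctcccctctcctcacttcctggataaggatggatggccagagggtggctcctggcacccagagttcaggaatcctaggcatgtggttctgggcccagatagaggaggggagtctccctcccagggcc
Lrrn4, chr2:132880863-132881112, minus strand: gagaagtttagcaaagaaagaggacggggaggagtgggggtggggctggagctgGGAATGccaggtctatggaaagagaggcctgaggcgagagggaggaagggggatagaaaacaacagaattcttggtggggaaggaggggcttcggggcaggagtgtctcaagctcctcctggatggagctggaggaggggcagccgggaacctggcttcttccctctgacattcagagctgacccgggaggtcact
The first base of the motif lay 241 bases before the start in Upk3b and 196 bases before it in Lrrn4. Gpm6a had 2 windows, and one of them held the motif 125 bases before its start, while the Muc16 window did not hold these letters. On either strand the motif was in 12.6% of all 32851 windows of the same length. It was picked after these windows had been read, so the match is a description and names no binding site.

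The deposited values are normalized counts, gene counts divided by 1 factor per mouse, and each mouse pools 3 technical libraries. Heart depth ran from 11202864 to 51480512 reads and liver depth from 21238166 to 81518015 reads. The Mrps12ha/ha hearts of mouse 1 and mouse 2 had 17916538 and 11202864 reads, the 2 shallowest of the hearts, and that of mouse 3 had 47813556 reads. Some samples stood apart in genes that mark the atria or another tissue. Summed over 5 atrial genes, led by Nppa, Myl4 and Myl7, the hearts of Mrps12+/+ mice 2 and 3 and Mrps12ep/ep mice 2 and 3 held between 92951 and 377881 normalized counts. The hearts of Mrps12+/+ mouse 1 and Mrps12ep/ep mouse 1 held 8108 and 1682, and the 3 Mrps12ha/ha hearts held 5215, 4551 and 10279. Among the livers, Mrps12+/+ mice 1 and 2 held 10128 and 10718 normalized counts of 5 skeletal muscle genes, and no other liver held more than 39.9. Because these are bulk samples, fewer mesothelial cells and less RNA per mesothelial cell cannot be told apart in any value that follows.

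In the hearts 7 of the 8 genes had the same order of samples in outline: highest in Mrps12ep/ep mouse 2, low in mouse 1 of both Mrps12+/+ and Mrps12ep/ep, and low in all Mrps12ha/ha hearts. Summed over the 8 genes, the Mrps12+/+ hearts held 1046, 2358 and 1674 normalized counts, the Mrps12ep/ep hearts 743, 4104 and 1881, and the Mrps12ha/ha hearts 663, 501 and 414. The 3 Mrps12ha/ha hearts were below the other 6. Wt1 did not share this pattern.

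**Figure D1:**
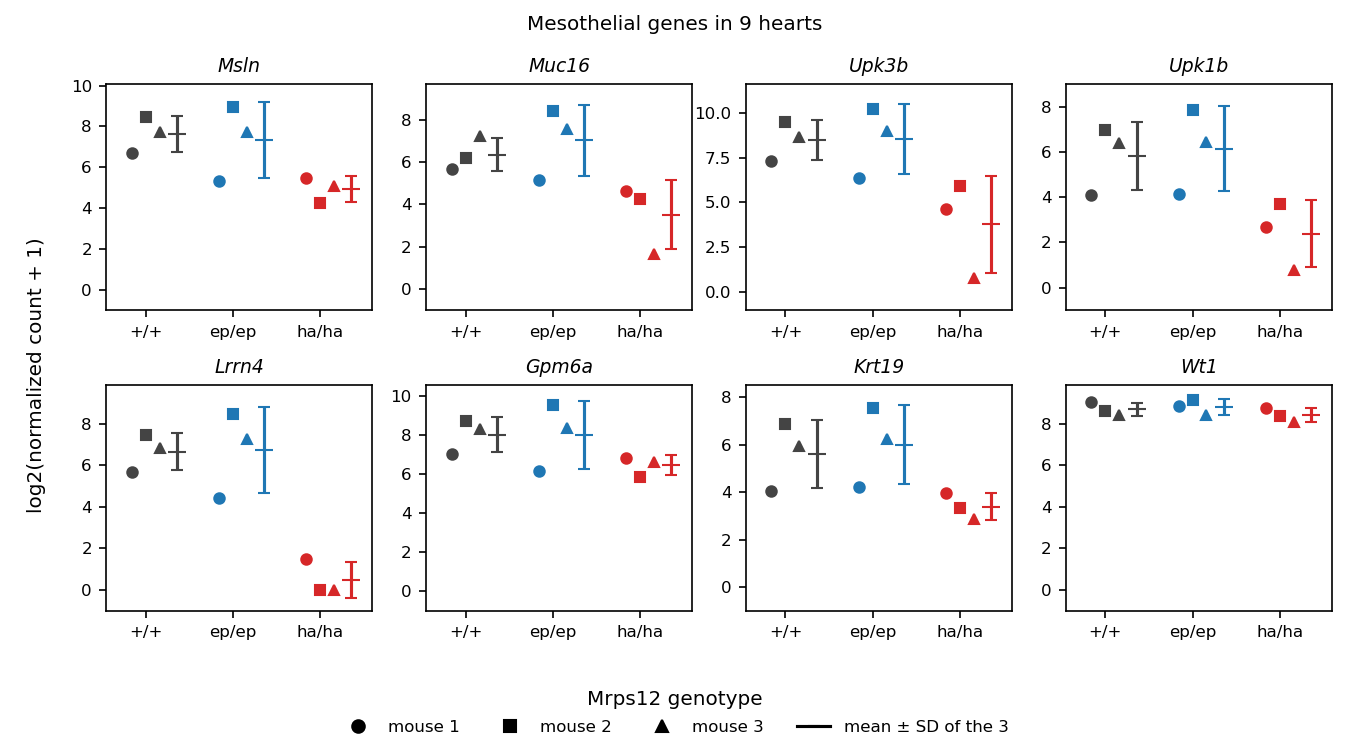
Log2(normalized count + 1) of the 8 mesothelial genes in 9 hearts, with 1 panel per gene on its own vertical scale, the Mrps12 genotype on the horizontal axis, 1 symbol per mouse number, and the mean ± SD of the 3 mice beside each group. Symbols of the Mrps12ha/ha hearts lie lowest in Upk3b, Upk1b, Lrrn4, Krt19 and Muc16, and the 3 genotypes overlap in Wt1.

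Mesothelin was at 103, 346 and 210 normalized counts in the Mrps12+/+ hearts, at 38.6, 501 and 214 in the Mrps12ep/ep hearts and at 44.2, 18.1 and 32.5 in the Mrps12ha/ha hearts. The Mrps12ha/ha hearts were below every Mrps12+/+ heart but overlapped Mrps12ep/ep mouse 1. Its binding partner Muc16 was at 49.1, 71.8 and 148 in Mrps12+/+, at 34.7, 333 and 186 in Mrps12ep/ep and at 23.9, 18.1 and 2.1 in Mrps12ha/ha. All 3 Mrps12ha/ha values of Muc16 were below all 6 others. On the log2(normalized count + 1) scale the difference between Mrps12ha/ha and Mrps12+/+ was -2.68 ± 0.83 (SE) for Msln and -2.84 ± 0.96 for Muc16, with n = 3 per group.

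The uroplakin Upk3b was at 158, 716 and 406 normalized counts in Mrps12+/+ hearts, at 82.2, 1179 and 509 in Mrps12ep/ep hearts and at 23.9, 60.4 and 0.7 in Mrps12ha/ha hearts. The value in Mrps12ha/ha mouse 3 stands for 1 read in the deepest library set of that genotype. Upk1b was at 16.4, 125 and 83.0 in Mrps12+/+, at 16.8, 233 and 86.3 in Mrps12ep/ep and at 5.5, 12.1 and 0.7 in Mrps12ha/ha. For both uroplakins every Mrps12ha/ha heart was below every other heart, and the order of the other 6 hearts was nearly the same in both genes. The difference between Mrps12ha/ha and Mrps12+/+ was -4.71 ± 1.33 (SE) for Upk3b and -3.44 ± 1.1 for Upk1b on the log2(normalized count + 1) scale, and the group means were 15.1-fold and 12.2-fold lower.

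Lrrn4, whose promoter window is printed above with that of Upk3b, came closest to absence. It was at 50.8, 176 and 112 normalized counts in Mrps12+/+ hearts, at 20.8, 354 and 152 in Mrps12ep/ep hearts and at 1.8, 0 and 0 in Mrps12ha/ha hearts. Those values stand for 440 reads in the Mrps12+/+ hearts, 798 in the Mrps12ep/ep hearts and 1 read in the Mrps12ha/ha hearts together. As a description of chosen values, the Mrps12+/+ hearts held 261 times as many reads per unit of depth as the Mrps12ha/ha hearts, with an exact 95% counting interval from 46.6 to 10300 that covers counting error only and is no test between the genotypes. The limit that a count of 0 allows, 3 reads, was 9.06 normalized counts in Mrps12ha/ha mouse 2 and 2.07 in mouse 3.

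Gpm6a was at 128, 424 and 313 normalized counts in Mrps12+/+ hearts, at 69.3, 753 and 325 in Mrps12ep/ep hearts and at 112, 57.4 and 98.9 in Mrps12ha/ha hearts. The Mrps12ha/ha hearts were below all Mrps12+/+ hearts and overlapped Mrps12ep/ep mouse 1. The keratin Krt19 was at 15.5, 114 and 61.0 in Mrps12+/+, at 17.8, 183 and 73.6 in Mrps12ep/ep and at 14.7, 9.1 and 6.2 in Mrps12ha/ha. All 3 Mrps12ha/ha values of Krt19 were the lowest, with the highest of them close to Mrps12+/+ mouse 1. The differences from Mrps12+/+ were -1.57 ± 0.77 (SE) for Gpm6a and -2.23 ± 0.89 for Krt19 on the log2(normalized count + 1) scale.

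Wt1 went against the reason for which it was chosen. It was at 525, 385 and 342 normalized counts in Mrps12+/+ hearts, at 463, 570 and 335 in Mrps12ep/ep hearts and at 436, 326 and 273 in Mrps12ha/ha hearts, and the 3 groups overlapped. Its difference between Mrps12ha/ha and Mrps12+/+ was -0.28 ± 0.25 (SE) on the log2(normalized count + 1) scale. In the 2 hearts of mouse 1 that were low in the other members, Wt1 was among the 3 highest values. Over the 6 hearts that were not Mrps12ha/ha, the correlation of Wt1 with the mean of the other 7 genes was -0.11, whereas for the other 7 genes the same measure ran from 0.85 to 0.98. These are descriptions over 6 hearts of shared libraries. The remaining account of mesothelial pattern in the heart thus rests on 7 genes, and Wt1 is kept in all counts.

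Every one of the 8 genes passed the filter of a mean of at least 10 normalized counts in both tissues. Against Mrps12+/+, 7 of 8 genes had all Mrps12ha/ha hearts below all Mrps12+/+ hearts, where 10.0% of the 16057 genes tested did so. Against Mrps12ep/ep it was 5 of 8, where 7.82% of all genes did so. Below all 6 other hearts it was again 5 of 8 (Upk3b, Upk1b, Lrrn4, Krt19 and Muc16), beside 4.63% of all genes. The choice of the members used these values, so nothing is read from the counts. The median difference of the 8 genes was -2.76 against Mrps12+/+ and -3.06 against Mrps12ep/ep (log2), and over all genes tested the medians were -0.024 and -0.023.

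The atrial genes moved with the mesothelial genes across the hearts. The 4 hearts with high atrial sums held 1674 to 4104 normalized counts of the 8 mesothelial genes, and the 5 hearts with low atrial sums held 414 to 1046. All 5 atrial genes were detected in some hearts, and their summed level overlapped between Mrps12+/+ (8108 to 162740) and Mrps12ha/ha (4551 to 10279) hearts. In Mrps12+/+ mouse 1 Nppa made up 7983 of the sum, above all Mrps12ha/ha hearts (3884.5 to 4582). Myl7, Myl4 and Sln were lower there (28.4, 84.4 and 4.3) than in every Mrps12ha/ha heart (at least 132.9, 190.3 and 42.3). The same held in Mrps12ep/ep mouse 1 (21.8, 63.4 and 3.0), where Nppa was also lower (1593). Bmp10 was low in Mrps12+/+ mouse 2 (9.5) and Mrps12ep/ep mouse 3 (4.5), both with high atrial sums. Ventricular genes as a sum, led by Myl2, Myl3 and Irx4, ran the other way. The sum was 240647 in Mrps12ep/ep mouse 2 and 550803 in Mrps12ha/ha mouse 1. Hey2, also in that list, did not run the other way, with a correlation with the mean of the 8 genes of 0.485 over 9 hearts. Within the 5 hearts low in atrial genes, the mesothelial sums were 1046 and 743 in the Mrps12+/+ and the Mrps12ep/ep heart and 663, 501 and 414 in the Mrps12ha/ha hearts. Atrial sums were lower in that Mrps12ep/ep heart (1682) than in any Mrps12ha/ha heart, yet its Upk3b (82.2), Lrrn4 (20.8) and Upk1b (16.8) were above all Mrps12ha/ha hearts, while its Msln (38.6) and Gpm6a (69.3) were within their range. Whether the amount of atrium sampled had a part in these values was not tested. Without both hearts of mouse 1 named above, the median difference of the 8 genes was -3.17 against Mrps12+/+ and -3.97 against Mrps12ep/ep. All Mrps12ha/ha hearts are then low and all others high in atrial genes, so genotype and atrial level cannot be told apart there.

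**Figure D2:**
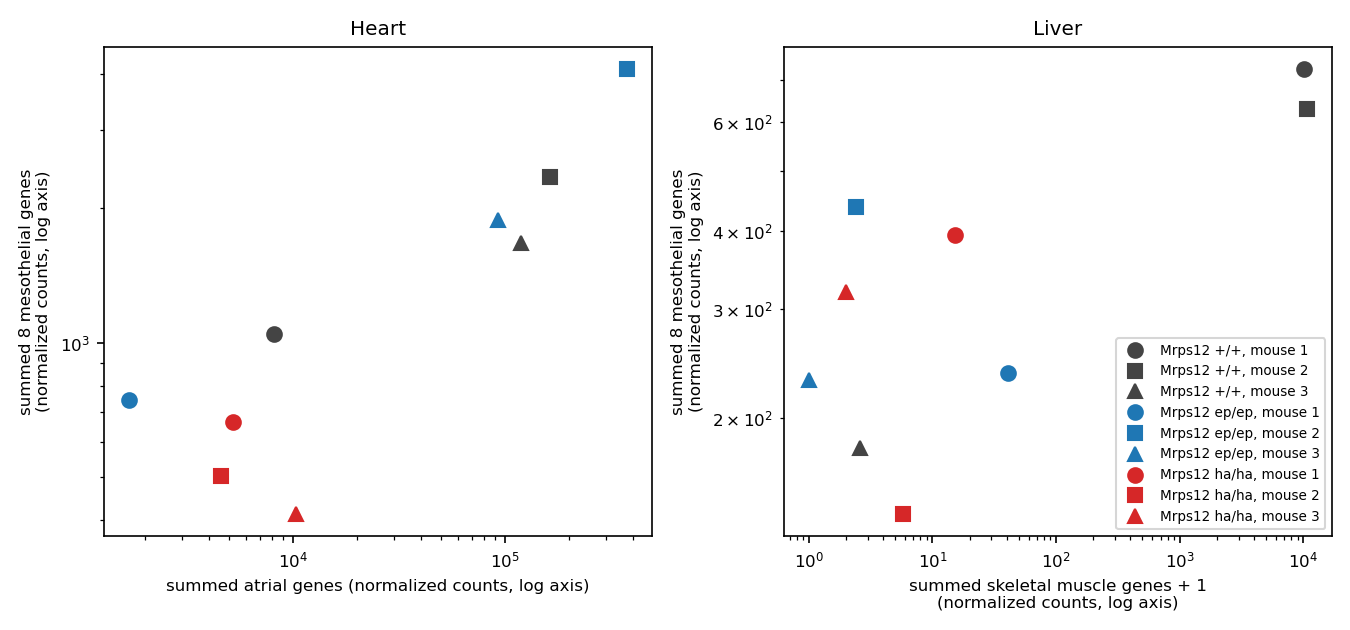
Summed normalized counts of the 8 mesothelial genes (vertical, log axis) in each mouse against the summed level of 5 atrial genes in the heart (left) and of 5 skeletal muscle genes plus 1 in the liver (right), both on log axes, with colour for genotype and symbol for mouse number. In the heart the 4 samples above 92951 atrial counts all lie above 1674 mesothelial counts, and in the liver the 2 samples above 10128 muscle counts have the 2 highest mesothelial sums.

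Fibroblast and endothelial genes varied less across the hearts. Fibroblast genes summed to between 37047 and 74252 normalized counts, with the highest sum in Mrps12ep/ep mouse 2, and endothelial genes to between 24659 and 45733, with the highest sum in Mrps12ha/ha mouse 1. The median log2 difference between Mrps12ha/ha and Mrps12+/+ hearts was -0.20 over 7 fibroblast genes and 0.48 over 4 endothelial genes. Adipocyte genes moved with the mesothelial genes in part. Of the 7 adipocyte genes 6 passed the filter, and their median log2 difference was -3.66 between Mrps12ha/ha and Mrps12+/+ hearts, with 6 of 6 lower, and -0.92 between Mrps12ha/ha and Mrps12ep/ep hearts, with 5 of 6 lower. The limma fit called none of the 6 in either contrast, and 1 (Lep) had an unadjusted p under 0.05 against Mrps12+/+. The sum of the 7 was 18173 normalized counts in Mrps12+/+ mouse 3 and 1127 to 2578 in the other 8 hearts, of which Cidea alone made up 1014 to 1434. The list holds genes of white and brown adipocytes. Its gene Ucp1 was at 8557 in Mrps12+/+ mouse 3, at 723 in Mrps12ep/ep mouse 2 and at no more than 25.1 in any other heart. Plin1, a coat protein of lipid droplets, was at 10.3, 136 and 2893 in Mrps12+/+ hearts, at 0, 332 and 9.1 in Mrps12ep/ep hearts and at 20.2, 18.1 and 5.5 in Mrps12ha/ha hearts. The 3 hearts with much Plin1 (Mrps12+/+ mice 2 and 3 and Mrps12ep/ep mouse 2) are among the 4 with high mesothelial sums, whereas Mrps12ep/ep mouse 3 is high in mesothelial genes and low in Plin1. The part of the adipocyte genes in these results was not tested. Transcripts of hepatocytes were in all hearts, from 378 to 15247 normalized counts in sum, highest in Mrps12+/+ mouse 1.

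A wider list of 18 genes known from mesothelium and epicardium, none of them a member, was read in the same hearts. Of these, 15 passed the filter on low values, Itln1 was at 0 in every heart, and Calb2 and Slpi were too low. In the Mrps12ha/ha hearts 14 of 15 had a lower mean log2 level than in Mrps12+/+ hearts, with a median difference of -1.34, and likewise 14 of 15 against Mrps12ep/ep hearts, with a median of -1.48. None passed the limma test at an adjusted p of 0.05 in either contrast, where 5 (0.0311%) and 4 (0.0249%) of all genes did. At an unadjusted p under 0.05 there were 7 and 8 of the 15, beside 19.7% and 17.9% of all genes, and limma-voom on reads recovered from the values also called none. Without the shallow Mrps12ha/ha heart of mouse 2, 3 of the 15 were called in both contrasts (Bnc1, Krt8 and Nkain4) and the calls over all genes rose to 4330 and 3730. These contrasts are the ones that chose the members, so the list is not independent of the choice.

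Bnc1, a zinc-finger protein of epithelial and mesothelial cells, was at 10.3, 38.9 and 13.2 normalized counts in Mrps12+/+ hearts, at 4.0, 63.8 and 39.1 in Mrps12ep/ep hearts and at 0 in all 3 Mrps12ha/ha hearts. Against a floor of 3 reads over the group, this was at least 15.4-fold lower than in Mrps12+/+ and at least 31.7-fold lower than in Mrps12ep/ep hearts. Nkain4, a small membrane protein that interacts with the sodium pump, was at 17.2, 82.2 and 55.3 in Mrps12+/+, at 16.8, 133 and 71.7 in Mrps12ep/ep and at 7.4, 9.1 and 2.1 in Mrps12ha/ha. Bnc1, Nkain4 and the keratin Krt18 were the 3 of 15 genes with all Mrps12ha/ha hearts below all 6 others, beside 4.63% of all genes. The list was drawn up with these data known, so nothing is read from this count.

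The size of the difference varied widely within the list. Tbx18, a T-box factor of epicardial and mural cells, was at 177 to 222 normalized counts in Mrps12+/+ hearts, 156 to 217 in Mrps12ep/ep hearts and 191 to 214 in Mrps12ha/ha hearts, a log2 difference of 0.06 ± 0.17 (SE) between Mrps12ha/ha and Mrps12+/+ and an adjusted p of 0.855 in limma. Aldh1a2, the retinoic acid synthesis enzyme of the epicardium, was at 308 to 321 in Mrps12+/+ hearts and 173 to 293 in Mrps12ha/ha hearts, a difference of -0.45 ± 0.25, with all Mrps12ha/ha hearts below all Mrps12+/+ hearts. The guidance ligand Sema3d differed by -1.34 ± 0.59, Rspo1, an enhancer of Wnt signalling, by -1.20 ± 0.48 and the membrane glycoprotein Pdpn by -0.66 ± 0.35. Chemerin (Rarres2) and the matrix protein Efemp1 also overlapped between the genotypes.

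**Figure D3:**
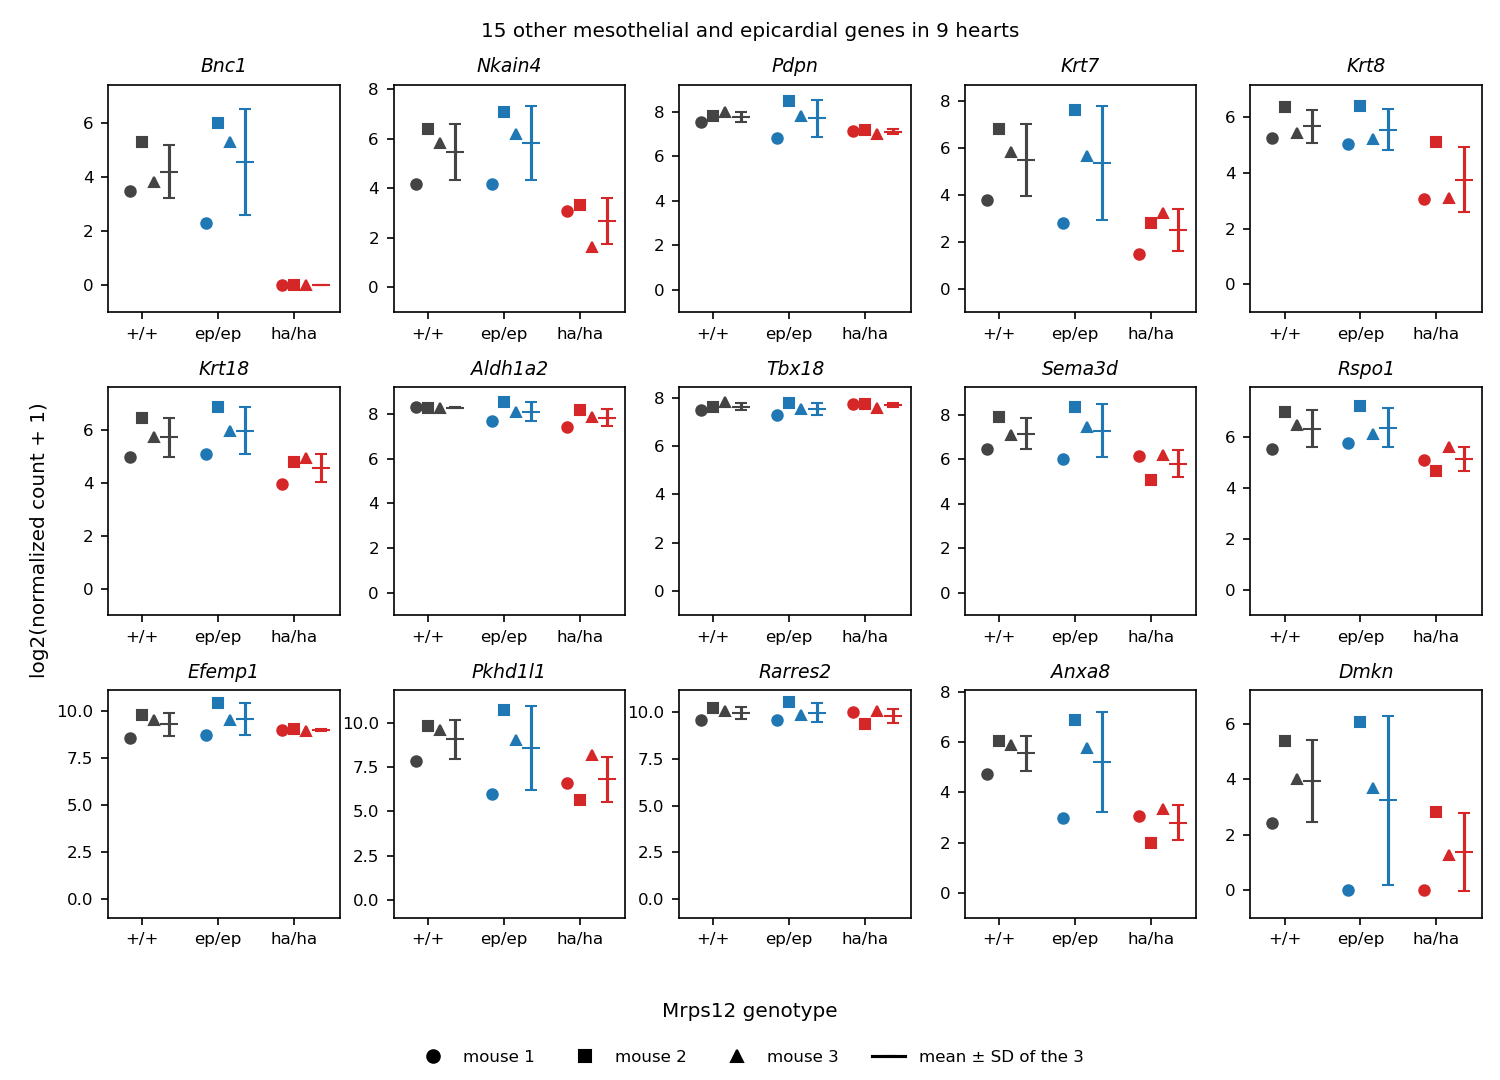
Log2(normalized count + 1) of the 15 other mesothelial and epicardial genes that passed the filter, in 9 hearts, drawn as for the 8 genes with 1 symbol per mouse and the mean ± SD of the 3 mice. Bnc1 is at 0 in all 3 Mrps12ha/ha hearts, Nkain4 and Krt18 are lowest there, and Tbx18 overlaps between all genotypes.

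Relatives of the members from the same gene families had no common direction. Of 12 such genes (other uroplakins, mucins and leucine-rich repeat proteins, and the closest relatives of Gpm6a, Msln and Krt19), 9 passed the filter, and their median log2 difference between Mrps12ha/ha and Mrps12+/+ hearts was 0.09, with 5 higher and 4 lower. Lrrn2, a relative of Lrrn4, shared the high value of Mrps12ep/ep mouse 2 (843 normalized counts, against 136 to 385 in the other 8 hearts). Gpm6b, the nearest relative of Gpm6a, was at 576 to 826 normalized counts in Mrps12+/+ hearts and 591 to 680 in Mrps12ha/ha hearts. The bladder uroplakin Upk3a was at 0 in 8 of 9 hearts.

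Some genes other than the 8 members had nearly the same profile over the 9 hearts, among them Nkain4 of the wider list. These 9 hearts include the Mrps12ha/ha hearts whose low values chose the members, so a ranking over them favours genes that are low there. The measure was Pearson's r of log2(normalized count + 1) with the mean of the 8 standardized members, over genes with a mean of at least 10, and it is given as a description since all points share the libraries. The 10 highest were Cybrd1 (0.988), Cyp2s1 (0.987), Tm4sf5 (0.979), Nkain4 (0.977), Impa1 (0.975), Col4a5 (0.974), Zfp516 (0.971), St6gal1 (0.970), Tnfrsf19 (0.968) and Ranbp17 (0.964). Cybrd1, a ferric reductase, was at 26.7, 70.9 and 65.4 normalized counts in Mrps12+/+ hearts, at 17.8, 155 and 85.4 in Mrps12ep/ep hearts and at 7.4, 6.0 and 2.1 in Mrps12ha/ha hearts. Cyp2s1, a cytochrome P450, was at 47.4, 194 and 102, at 37.6, 284 and 178 and at 20.2, 12.1 and 4.1 in the same order. Impa1, Col4a5, Zfp516 and St6gal1 were abundant genes that varied less, Impa1 from 461 to 765 normalized counts over all 9 hearts. Over the 6 hearts that were not Mrps12ha/ha the highest were Lgals3 (0.998), Cdh19 (0.997), Mboat2 (0.996), Tmem167b (0.996) and Ckmt1 (0.996), and for Cdh19 r over 9 hearts was 0.479. The fibroblast matrix gene Dcn reached 0.98 over the same 6 hearts, the atrial peptide gene Nppa 0.97 and the ventricular light chain gene Myl3 -0.96.

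The comparison of Mrps12ep/ep with Mrps12+/+ hearts asks whether the error-prone ribosome moved these genes, and it shares the 3 Mrps12+/+ hearts with the contrast that chose them. No difference was detected. The log2 differences of the 8 genes ran from -0.28 for Msln to 0.68 ± 0.96 (SE) for Muc16, with a median of 0.09 beside -0.009 over all genes, and each adjusted p was 1.0 in limma. None of the 8 was called, at an adjusted or at an unadjusted p of 0.05 in limma or by limma-voom. Of all genes tested, 0% passed the adjusted and 1.69% the unadjusted threshold in limma, and limma-voom called 2 genes. With shares this small, a count of 0 among 8 genes says little about them. No gene of the 8 had all Mrps12ep/ep hearts below all Mrps12+/+ hearts, where 3.64% of all genes did. None of the 15 other mesothelial genes was called either, at an adjusted or unadjusted p of 0.05 or by limma-voom, beside the same shares of all genes. Both groups spanned a wide range, for Upk3b 158 to 716 and 82.2 to 1179 normalized counts, so the standard error of 1.33 on a log2 difference of 0.04 left differences of several fold undetectable. The median turned to -0.65 without Mrps12ep/ep mouse 2 and to -0.46 without Mrps12+/+ mouse 1, and it was 1.16 without Mrps12ep/ep mouse 1. With 3 mice against 3, the smallest two-sided p of an exact permutation test is 0.1, and for the 8 genes these ran from 0.6 to 1.0.

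In the liver, which the choice of genes did not use, all 8 genes were present and the highest values were in Mrps12+/+ mice. Summed over the 8 genes, the Mrps12+/+ livers held 729, 629 and 179 normalized counts, the Mrps12ep/ep livers 237, 437 and 231 and the Mrps12ha/ha livers 395, 140.5 and 319. Mrps12+/+ mice 1 and 2 were the highest livers and Mrps12+/+ mouse 3 was lower than all but 1 mutant liver, so the groups overlapped. Mrps12+/+ mouse 1 was above all 6 mutant livers in 7 of the 8 genes and mouse 2 in 6 of 8.

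**Figure D4:**
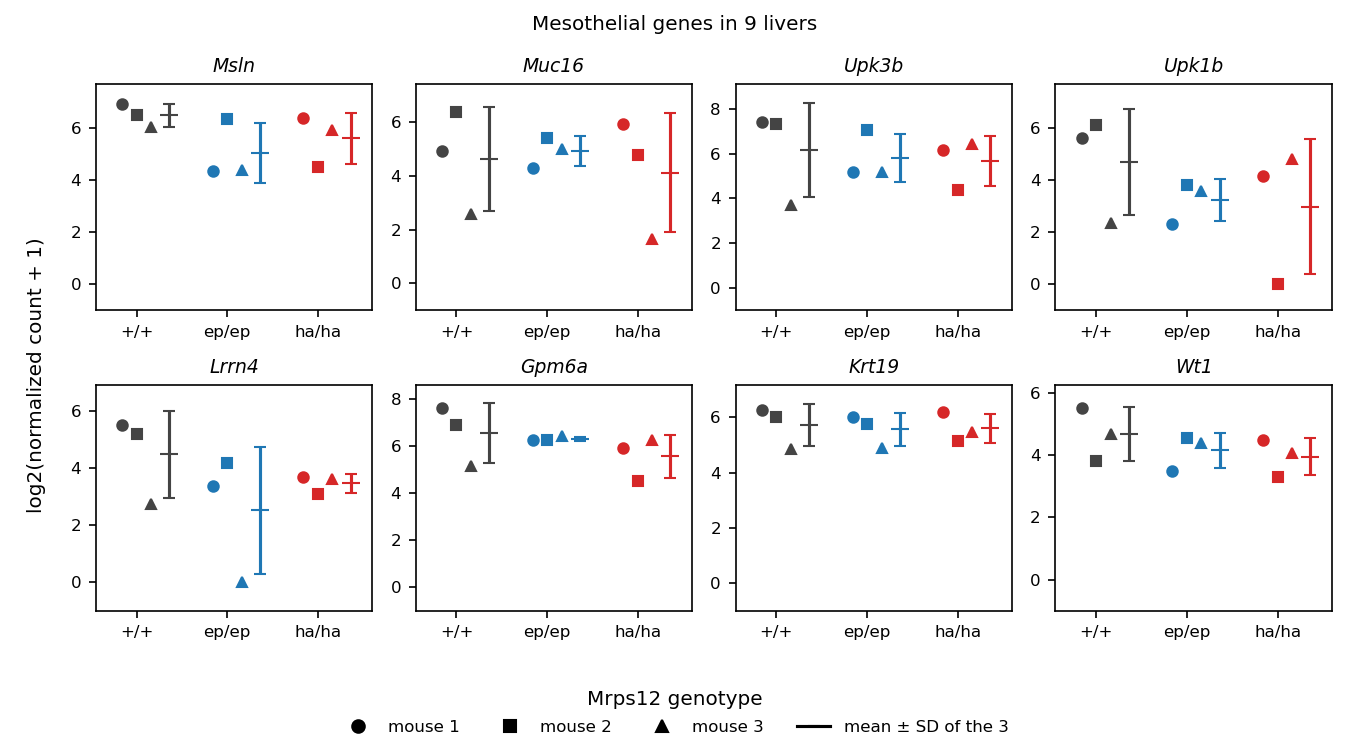
Log2(normalized count + 1) of the 8 mesothelial genes in 9 livers, with 1 panel per gene on its own vertical scale, the Mrps12 genotype on the horizontal axis, 1 symbol per mouse number and the mean ± SD of the 3 mice beside each group. Mrps12+/+ mouse 3 lies below the other 2 Mrps12+/+ livers in 7 of the 8 panels, and the genotypes overlap in all except Gpm6a of Mrps12ep/ep and Mrps12ha/ha.

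Mesothelin was at 122, 89.8 and 66.0 normalized counts in Mrps12+/+ livers, at 19.6, 81.7 and 20.0 in Mrps12ep/ep livers and at 83.3, 21.8 and 60.3 in Mrps12ha/ha livers. The Mrps12ep/ep values overlapped those of Mrps12+/+ through mouse 2 alone. The log2 difference was -1.46 ± 0.63 (SE), the only one of the 8 with an unadjusted p under 0.05 in limma (0.0458), and its adjusted p was 0.505, with an exact permutation p of 0.2. Muc16 was at 29.4, 82.5 and 4.9 in Mrps12+/+, at 18.8, 41.9 and 31.1 in Mrps12ep/ep and at 59.5, 26.6 and 2.1 in Mrps12ha/ha livers, so its order of samples was not that of Msln.

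Upk3b was at 171, 159 and 12.2 normalized counts in Mrps12+/+ livers, at 35.3, 132 and 35.5 in Mrps12ep/ep livers and at 71.4, 19.8 and 84.2 in Mrps12ha/ha livers. Upk1b was at 48.3, 67.9 and 4.1, at 3.9, 13.0 and 11.1 and at 16.7, 0 and 27 in the same order. Both uroplakins were high in the same 2 Mrps12+/+ livers. Lrrn4, nearly absent from Mrps12ha/ha hearts, was at 11.9, 7.5 and 11.4 normalized counts in Mrps12ha/ha livers, at 9.4, 17.3 and 0 in Mrps12ep/ep livers and at 44.8, 35.6 and 5.7 in Mrps12+/+ livers. Its log2 difference between Mrps12ha/ha and Mrps12+/+ livers was -1.02 ± 1.1 (SE), with an adjusted p of 0.711 in limma. Whether the heart and liver differences of Lrrn4 differ from each other was not tested.

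Gpm6a was at 193, 118 and 34.2 normalized counts in Mrps12+/+ livers, at 76.0, 75.9 and 84.3 in Mrps12ep/ep livers and at 59.5, 21.8 and 74.9 in Mrps12ha/ha livers. Krt19, which bile duct cells also make, was at 76.3, 63.9 and 27.7, at 63.5, 53.5 and 28.9 and at 71.4, 34.1 and 43.7 in the same order, and Wt1 at 44.8, 12.9 and 24.5, at 10.2, 22.4 and 20.0 and at 21.4, 8.9 and 15.6. Krt19 was the steadiest of the 8 genes, with group means of 56.0 ± 25.3 (SD, n = 3), 48.6 ± 17.8 and 49.7 ± 19.4.

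Against Mrps12+/+ livers, the median log2 difference of the 8 genes was -0.43 in Mrps12ep/ep and -0.80 in Mrps12ha/ha livers. Over all 15314 genes tested the medians were -0.007 and -0.017. Of the 8 genes, 7 were lower in Mrps12ep/ep and all 8 in Mrps12ha/ha livers, but none passed an adjusted p of 0.05 in limma, where 0.00653% of all genes did in each. At an unadjusted p under 0.05 there was 1 (Msln) and 0 of the 8, which is near or below the 9.74% and 14.1% of all genes, and limma-voom called none. No gene had all livers of the mutant below all Mrps12+/+ livers, where 6.28% of all genes did for Mrps12ep/ep and 9.81% for Mrps12ha/ha. Between the mutants the median was -0.17 beside -0.002. None of the 8 was called at an adjusted or unadjusted p of 0.05 in limma or by limma-voom. Of all genes, 0.00653% passed the adjusted and 8.62% the unadjusted threshold in limma. Gpm6a alone had all Mrps12ha/ha livers below all Mrps12ep/ep livers (9.01% of all genes). Its exact permutation p was 0.1, the smallest that 3 mice against 3 can give. Adjusted p-values of the 8 genes in limma ran from 0.505 to 0.99 over the 3 liver contrasts.

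The 2 Mrps12+/+ livers with the highest mesothelial sums were also high in skeletal muscle genes. Myh4, Myh1 and Pvalb, genes of fast muscle fibres, were at 6181, 2075 and 826 normalized counts in Mrps12+/+ mouse 1 and at 3957, 5309 and 655 in mouse 2, and summed to no more than 36 in any other liver. The 7 adipocyte genes summed to 619 and 3644 normalized counts in the same 2 livers, to 8431 in Mrps12+/+ mouse 3 and to 173 to 1478 in the 6 mutant livers. Within that list Cidec, at 507, 2474 and 7770 in Mrps12+/+ livers, was highest in mouse 3, and Cidea was at 10.5, 702 and 647. Other genes of the list were lowest in mouse 3 of the Mrps12+/+ livers. These were Lep (30.1, 204 and 6.5), Adipoq (34.3, 118 and 2.4), Plin1 (24.5, 111 and 1.6) and Retn (9.8, 34.8 and 3.3). Lep was at 0 in all mutant livers and the other 3 at no more than 3.9. Ucp1 was at no more than 2.8 in any liver. The sum thus does not follow these genes. Whether other attached tissue had a part in the mesothelial values was not tested. With Mrps12+/+ mouse 3 as the only liver of its group, the median difference of the 8 genes turned to 0.80 for Mrps12ep/ep and 0.68 for Mrps12ha/ha, still with none called (0.02 for Mrps12ep/ep without Mrps12+/+ mouse 1 alone), and the lone liver was then assumed to vary like the other groups. Upk3b, Upk1b, Krt19 and Gpm6a changed direction in both mutants, and Lrrn4 and Muc16 in Mrps12ha/ha. Msln and Wt1 remained lower in both mutants, Msln by -1.02 in Mrps12ep/ep and -0.45 in Mrps12ha/ha (log2), and in Mrps12ep/ep Lrrn4 remained lower and Muc16 higher, without passing the test. That liver stood apart in another way, since Spp1, the osteopontin gene of bile duct and other cells, was at 11817 normalized counts there against 921 to 2299 in the other 8.

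**Figure D5:**
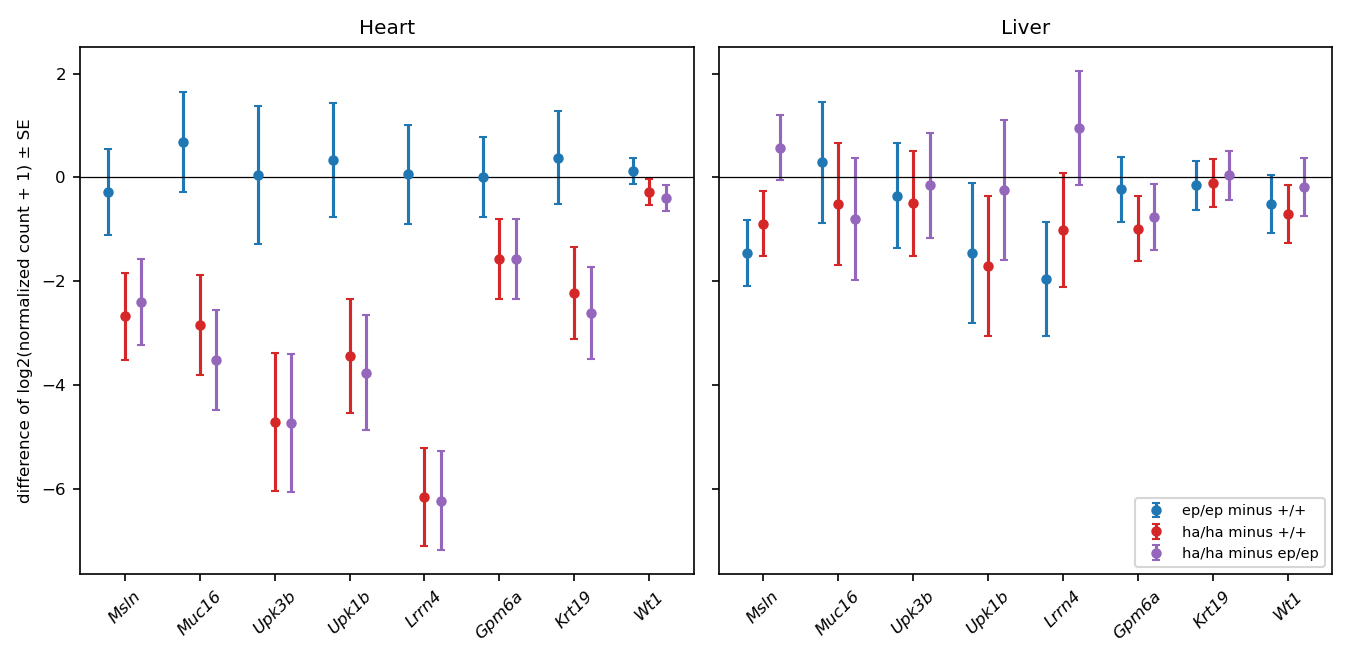
Differences of log2(normalized count + 1) ± SE (limma, 3 mice per group) of the 8 mesothelial genes in the heart (left) and the liver (right), coloured by contrast. In the heart the contrasts with Mrps12ha/ha, which chose the genes, run from -0.28 to -6.23, whereas Mrps12ep/ep against Mrps12+/+ runs from -0.28 to 0.68, and in the liver no difference passed an adjusted p of 0.05.

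Of the 18 other mesothelial genes, 13 passed the filter in the liver, and 11 were lower in Mrps12ep/ep and 12 in Mrps12ha/ha than in Mrps12+/+ livers, with median log2 differences of -0.37 and -0.44. None was called in limma or limma-voom, and 1 in each contrast had an unadjusted p under 0.05, near or below the share of all genes (9.74% and 14.1%). Krt8, Krt18 and Rarres2 are hepatocyte genes in this tissue, at 5450 to 26218 normalized counts, so the list marks mesothelium less well there. Bnc1 was at 13.3, 17.0 and 2.4 normalized counts in Mrps12+/+ livers and at no more than 5.2 in any mutant liver, the same samples high as for Upk3b and Upk1b. Between the mutants the median of the 13 genes was -0.16. None was called or had an unadjusted p under 0.05 in limma, beside 0.00653% and 8.62% of all genes.

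Levels can be set against each other only per length, as RPKM, reads per kilobase of merged exons scaled to the reads of the library, computed here from the recovered reads. In Mrps12+/+ hearts the order was Upk3b (3.74 ± 2.49 RPKM, SD, n = 3), Gpm6a (2.77 ± 1.46), Msln (2.22 ± 1.26), Wt1 (2.07 ± 0.448), Upk1b (1.11 ± 0.817), Krt19 (1.06 ± 0.833), Lrrn4 (0.939 ± 0.529) and Muc16 (0.105 ± 0.0609). The ranges of mean ± SD overlapped between all neighbours in this order except Lrrn4 and Muc16. In Mrps12+/+ livers Gpm6a led (0.733 ± 0.533 RPKM), followed by Upk3b (0.660 ± 0.519), Krt19 (0.611 ± 0.301), Msln (0.608 ± 0.218), Upk1b (0.391 ± 0.318), Lrrn4 (0.158 ± 0.116), Wt1 (0.0893 ± 0.0569) and Muc16 (0.0298 ± 0.030), and the ranges of all neighbours overlapped. The ratio of mean RPKM between Mrps12+/+ hearts and livers was 23.2 for Wt1 and between 1.74 and 5.94 for the other 7 genes. The tissues were normalized separately, and the shares of a library were not tested between them.

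In the annotation of the build (GRCm38, GENCODE vM21) all 8 are protein-coding genes on 7 chromosomes, and no exon of theirs overlaps an exon of another annotated gene. Msln lies at chr17:25748613-25754378 (minus strand), Muc16 at chr9:18495455-18674530 (minus), Upk3b at chr5:136038496-136046487 (plus) and Upk1b at chr16:38773184-38800328 (minus). Lrrn4 lies at chr2:132868305-132880891 (minus) and Wt1 on the same chromosome at chr2:105126529-105173616 (plus). The RefSeq start of Lrrn4 used for its promoter window is at 132880862, so the last bases of that window lie inside this span. Gpm6a lies at chr8:54954843-55060871 (plus) and Krt19 at chr11:100140810-100148665 (minus).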

How the data were processed

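RNA was extracted from whole hearts and livers and sequenced as 54 libraries, 3 technical libraries for each of 3 mice per genotype and tissue. The authors trimmed the reads with Trim Galore 0.4.1 and cutadapt 1.18, checked them with FastQC 0.11.8, quantified GENCODE vM21 transcripts (GRCm38.p6) with Salmon 1.1.0, summed them to genes, and normalized them with DESeq2, which gives 1 column per mouse. The deposited normalized counts carry 1 decimal, and all low values in each column were whole multiples of 1 step (within 0.1 of a step), so reads and depth were recovered from the steps. The deposited tables of the authors' own comparisons hold fold changes and p-values and were not used. No column of unknown samples was present.

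Genes averaging 10 normalized counts or more in the 9 samples of either tissue entered the test as log2(normalized count + 1) in limma 3.58.1 (R 4.3.3), with the 3 genotypes of a tissue in 1 fit, an intensity trend and Benjamini-Hochberg adjustment over all genes tested, at a threshold of 0.05. A fold change on this scale understates the change of low genes. The script was tested on simulated data. Single genes were also compared by a two-sided exact permutation test (scipy 1.17.1). p-values measure the spread between mice, and counting intervals cover counting error only. RPKM was computed here from recovered reads and merged exon lengths. The members and all lists were chosen with earlier results of these data known. Named were the 8 genes, any gene of the wider mesothelial list, the 3 most abundant genes of each other list and the genes with the highest correlation with the members (10 over 9 hearts, 5 over 6). Others (Lep, Adipoq, Retn, Dcn, Upk3a, Sln, Bmp10, Hey2) were named after their values were seen. Alternatives changed the pseudocount, the filter, the scaling, weights, the replicate block, the genotypes fitted, the test and the mice included.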

Additional observations from a re-analysis of the deposited data

How the results depend on the processing

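No member passed an adjusted p of 0.05 in the 4 contrasts tested (Mrps12ep/ep against Mrps12+/+ hearts and the 3 liver contrasts) under any alternative run, and the directions of values that pass no test carry little weight. Adjusted p-values over these alternatives ran from 0.204 to 1.0. The planned edgeR fit was not run, and limma-voom on recovered reads, chosen after seeing the data, stands in for it. In the Mrps12ha/ha heart contrasts the direction of all 8 genes held under all alternatives run, and the fitted difference of Lrrn4 against Mrps12+/+ moved from -6.16 to -8.55 with a pseudocount of 0.1 and to -3.67 with a pseudocount of 8 (-8.61 and -3.79 against Mrps12ep/ep), as a pseudocount does to values near 0. Of the other mesothelial genes, array weights called 5 against Mrps12+/+ (Anxa8, Bnc1, Krt7, Krt8, Nkain4) and 7 against Mrps12ep/ep hearts (these with Krt18 and Sema3d), leaving out single hearts called 0 to 3 in each contrast, 3 without Mrps12ha/ha mouse 2, and leaving out both hearts low in atrial genes called 1 against Mrps12ep/ep (Bnc1). The cause was not tested. Calls over all genes in these 2 contrasts were 5573 and 6314 with array weights. Without both hearts low in atrial genes they were 22 against Mrps12ep/ep, where genotype and atrial level cannot be told apart.

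Without the 2 Mrps12+/+ livers high in skeletal muscle genes, an alternative chosen after seeing the data, other mesothelial genes called were 3 in Mrps12ep/ep (Krt8, Krt18, Rarres2) and 2 in Mrps12ha/ha (Krt8, Krt18), with 1151 and 1062 calls over all genes. The median of the members turned to 0.80 and 0.68. In Mrps12ep/ep livers Upk3b turned to 2.08, Upk1b to 0.88, Krt19 to 0.72 and Gpm6a to 1.18. In Mrps12ha/ha livers Upk3b turned to 1.93, Upk1b to 0.63, Lrrn4 to 0.73, Krt19 to 0.75, Muc16 to 1.55 and Gpm6a to 0.42. With array weights Wt1 in Mrps12ep/ep hearts turned to -0.11 and Muc16 in Mrps12ep/ep livers to -0.50, and between the mutant livers Upk3b turned to 0.32 and Upk1b to 0.39, the latter also with a pseudocount of 8 (0.18). With limma-voom Krt19 between the mutant livers turned to -0.27. Without both hearts low in atrial genes Msln in Mrps12ep/ep hearts turned to 0.28.

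With 1 mouse left out at a time, the single-gene log2 differences named next changed sign, and the median of the members is given beside them. In Mrps12ep/ep against Mrps12+/+ hearts the median ran from -0.65 to 1.16, Msln from -1.09 to 0.74, Upk3b from -0.80 to 1.11, Upk1b from -0.53 to 1.33, Wt1 from -0.06 to 0.32, Lrrn4 from -0.81 to 1.20 and Krt19 from -0.41 to 1.26. In Mrps12ep/ep against Mrps12+/+ livers the median ran from -1.25 to 0.02, Upk3b from -1.56 to 0.29, Krt19 from -0.59 to 0.18, Muc16 from -0.74 to 1.17 and Gpm6a from -0.93 to 0.30. In Mrps12ha/ha against Mrps12+/+ livers the median ran from -1.62 to -0.36, Upk3b from -1.71 to 0.14, Krt19 from -0.55 to 0.17 and Muc16 from -1.54 to 0.73. In Mrps12ha/ha against Mrps12ep/ep livers the median ran from -0.49 to 0.38, Upk3b from -0.53 to 0.49, Upk1b from -1.16 to 1.24, Wt1 from -0.52 to 0.13, Lrrn4 from -0.32 to 1.78, Krt19 from -0.29 to 0.27 and Muc16 from -1.70 to 0.44.

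The mouse numbers were shared between genotypes, but same-numbered samples did not deviate together in every pair (correlations of deviations from -0.23 to 0.58 in the hearts). Between Mrps12ep/ep and Mrps12+/+ hearts these were 0.58, 0.41 and -0.07 for mice 1, 2 and 3. Whether a number stands for a shared batch was not tested, and it is used here as a name. With the replicate block no member was called, the median difference of the members stayed at 0.09, -2.76 and -3.06 in the heart contrasts and was -0.43, -0.80 and -0.17 in the liver contrasts, and calls over all genes in the livers were 9, 7 and 6 in place of 1 each. Low reads limit Lrrn4, Upk1b, Krt19, Muc16 and Upk3b (1 to 34 reads over the 3 mice) in the Mrps12ha/ha hearts and Lrrn4, Upk1b, Wt1 and Muc16 in the livers.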
